A study of Mus musculus with 6 samples.

Results

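The genes described here encode perforin and the machinery by which cytotoxic T cells store and release their lytic granules. They are 10 genes chosen by name, with earlier results of these data known. All of them were present among the 15898 genes of the count table. All passed the filter on low counts that left 15477 genes for testing. By role they were taken as granule contents (Prf1, Srgn, Ctsw and Ctsc), granule membrane proteins (Nkg7 and Lamp1) and proteins of granule docking and fusion (Rab27a, Unc13d, Stx11 and Stxbp2).

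A cytotoxic T cell kills by fusing lysosome-related granules with its membrane at the contact with its target, so that perforin opens pores through which granzymes enter. Docking at the membrane requires the small GTPase Rab27a. Priming requires Munc13-4, the product of Unc13d, and fusion requires syntaxin-11 together with its chaperone Munc18-2, the product of Stxbp2. In humans, inherited loss of perforin, Munc13-4, syntaxin-11 or Munc18-2 causes familial haemophagocytic lymphohistiocytosis, and loss of RAB27A causes Griscelli syndrome.

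RNA was sequenced from 4 libraries of IL-10/Fc-treated and 2 libraries of PBS-treated C57BL/6 mice bearing B16F10 melanomas. All mice had received 4 Gy of total body irradiation on day -4 and, on day -3, naive Thy1.1+ PMEL T cells, which carry 1 transgenic receptor, Tg(TcraTcrb)8Rest, against the melanocyte antigen gp100 and the Thy1a allele of the strain B6.Cg-Thy1a/Cy. The tumour was given on day 0, and activated Thy1.2+ PMEL CD8+ T cells were transferred on day 10. From day 10 the mice were given 4 doses beside the tumour, every other day, of 20 µg IL-10/Fc, a fusion of interleukin-10 with an antibody Fc part, or of PBS. On day 18, 500 Thy1.1+ CD8+ cells bearing PD-1 and TIM-3, which together mark terminally exhausted T cells, were sorted for each library. The host cells, the irradiation and the second transfer are thus shared by both groups, and the sorted PMEL cells carry the same transgenic receptor. Other receptor chains in these cells were not examined. The comparison asks how IL-10/Fc changed expression in these exhausted cells. Nothing in the labels ties a library to 1 mouse, so the p-values describe the variation among these libraries, part of which may be technical.

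The libraries held 26738871 to 36941814 counts. Values below are CPM, counts relative to the library's total, scaled by the trimmed mean of M values (TMM), and fold changes are IL-10/Fc over PBS. Defining markers of the sorted cells were present in every library, but at unequal levels. The summed level of Cd3d, Cd3e, Cd3g, Cd8a and Cd8b1 was 12611, 12541, 11159 and 12202 CPM in IL-10/Fc replicates 1 to 4, against 4910 CPM in PBS replicate 1 and 8562 CPM in PBS replicate 2. PBS replicate 1 thus stood apart from every other library in this sum. It was not the lowest for each of the transcripts: Cd3d had 1481 CPM there and 1387 CPM in PBS replicate 2. Of the other genes of the sort, Pdcd1 (PD-1) had 699, 1112, 994 and 867 CPM in IL-10/Fc replicates 1 to 4. It had 1578 and 1286 CPM in PBS replicates 1 and 2, so every IL-10/Fc library lay below PBS. Thy1 lay above PBS in every IL-10/Fc library, at 367 to 685 CPM against 178 and 260 CPM. Havcr2 (TIM-3) had 161 to 311 CPM in IL-10/Fc, a range that took in both PBS libraries. In RNA of sorted pools, fewer cells that express a gene and less RNA per cell cannot be told apart.

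Among the granule contents, transcripts of perforin, serglycin and cathepsin W lay higher in every IL-10/Fc library than in either PBS library, and cathepsin C did not. Prf1, the pore-forming protein itself (chromosome 10, 61297836 to 61304263 in GRCm38, as for all genes below, plus strand), had 737, 597, 682 and 764 CPM in IL-10/Fc replicates 1 to 4, against 184 and 524 CPM in PBS replicates 1 and 2. The IL-10/Fc libraries lay close together, with a highest value 1.28 times the lowest, while the PBS libraries differed by 2.84 times. The mean was 695 ± 73.6 CPM in IL-10/Fc and 354 ± 240 CPM in PBS (SD, n = 4 and 2), a log2 fold change of 0.97 (95% interval 0.02 to 1.93). It did not pass edgeR's quasi-likelihood test (Benjamini-Hochberg adjusted p = 0.389). Its size depended on the PBS libraries: the log2 fold change was 0.41 when PBS replicate 1 was left out and 1.92 when PBS replicate 2 was left out.

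Srgn encodes serglycin, the proteoglycan on which perforin and granzymes are packed (chromosome 10, 62493833 to 62527451). It had 3760, 3372, 3383 and 3431 CPM in IL-10/Fc replicates 1 to 4, against 2718 and 2137 CPM in PBS replicates 1 and 2. Unlike Prf1, it was the higher of the PBS pair in replicate 1, and the groups stayed apart without that library. The log2 fold change was 0.52 (SE 0.12), and leaving out PBS replicate 1 gave 0.70 and leaving out PBS replicate 2 gave 0.36.

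Ctsw encodes cathepsin W, a cysteine protease of cytotoxic lymphocytes (chromosome 19, 5465240 to 5468498). It had 1275, 1529, 1154 and 1206 CPM in IL-10/Fc replicates 1 to 4, against 666 and 923 CPM in PBS replicates 1 and 2. The groups did not overlap, and the log2 fold change was 0.70 (SE 0.18). Leaving out PBS replicate 1 gave 0.48, and leaving out PBS replicate 2 gave 0.95.

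Ctsc encodes cathepsin C, which trims granzymes to their active form (chromosome 7, 88278085 to 88310888). It had 336, 523, 540 and 542 CPM in IL-10/Fc replicates 1 to 4, against 359 and 637 CPM in PBS replicates 1 and 2. The groups overlapped fully, with the lowest library in IL-10/Fc and the highest in PBS, and the log2 fold change was -0.04 (95% interval -0.73 to 0.66; -0.39 without PBS replicate 1 and 0.44 without PBS replicate 2). That interval spans changes of both directions, so a lack of change was not shown.

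Of the membrane proteins, Nkg7 was the most abundant gene of the group and lay higher in IL-10/Fc, while Lamp1 varied too much to place. Nkg7, a small membrane protein of cytotoxic granules needed for degranulation in mice (chromosome 7, 43437073 to 43438249), had 13934, 13523, 11504 and 13500 CPM in IL-10/Fc replicates 1 to 4, against 4934 and 9197 CPM in PBS replicates 1 and 2. Every IL-10/Fc library was above both PBS libraries, and PBS replicate 1 was again the lowest. The log2 fold change was 0.89 (95% interval 0.30 to 1.49), with 0.51 when PBS replicate 1 was left out and 1.41 when PBS replicate 2 was left out.

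Lamp1 encodes the lysosomal glycoprotein CD107a, whose arrival at the cell surface is used to score degranulation (chromosome 8, 13159161 to 13175338). It had 72, 138, 104 and 80.7 CPM in IL-10/Fc replicates 1 to 4, against 151 and 44.8 CPM in PBS replicates 1 and 2. All IL-10/Fc values lay between those of the PBS libraries, which differed by 3.37 times with PBS replicate 1 the higher. The log2 fold change was 0.01 (95% interval -1.18 to 1.2). It was 1.14 when PBS replicate 1 was left out and -0.61 when PBS replicate 2 was left out, and it turned to -0.17 with scaling by library size alone.

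**Figure D1:**
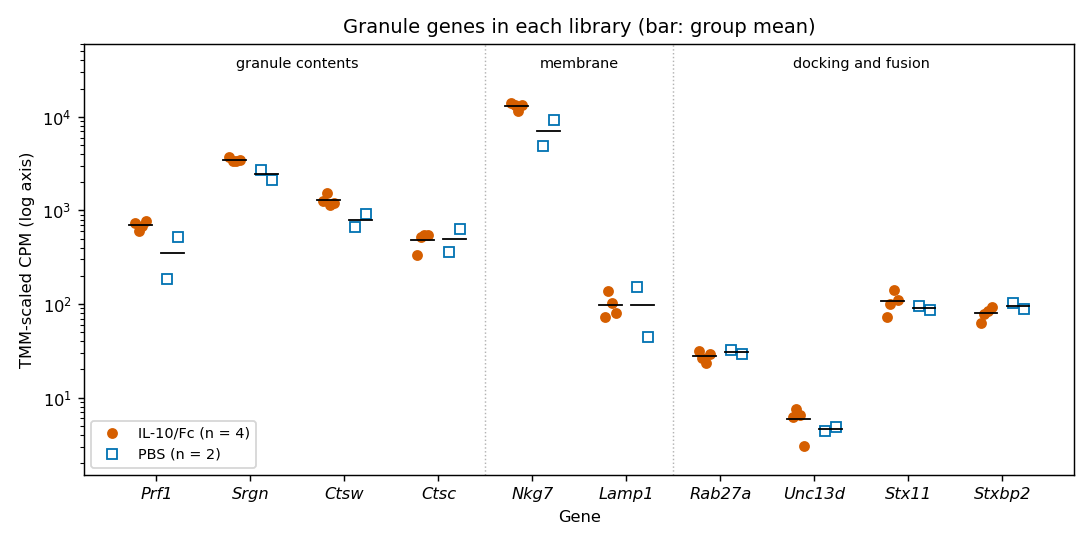
TMM-scaled CPM of the 10 genes on a log axis, with 1 point per library (filled circles IL-10/Fc, n = 4; open squares PBS, n = 2) and a bar at each group mean. Prf1, Srgn, Ctsw and Nkg7 have all IL-10/Fc points above both PBS points, and the docking and fusion genes overlap on this scale, where Rab27a and Stxbp2 do not with scaling by library size alone.

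With TMM scaling none of the docking and fusion genes separated the libraries. The 95% interval of each spans changes of both directions, so a lack of change was not shown. Rab27a, the GTPase that docks granules (chromosome 9, 73044854 to 73097629), had 31.4, 26.8, 23.7 and 29.6 CPM in IL-10/Fc replicates 1 to 4, against 32.2 and 29.2 CPM in PBS replicates 1 and 2. Stxbp2, the syntaxin chaperone Munc18-2 (chromosome 8, 3630955 to 3643644), had 63.0, 78.8, 84.3 and 93.1 CPM in IL-10/Fc replicates 1 to 4, against 103 and 89.1 CPM in PBS replicates 1 and 2. Both leaned lower in IL-10/Fc, and the PBS range took in 2 IL-10/Fc libraries for Rab27a and 1 for Stxbp2. With scaling by library size alone, both lay below PBS in every IL-10/Fc library. Rab27a then had 30.0, 25.7, 23.3 and 28.1 CPM in IL-10/Fc replicates 1 to 4, against 35.4 and 31.1 CPM in PBS replicates 1 and 2. On that scale Stxbp2 had 60.2, 75.3, 82.9 and 88.4 CPM in IL-10/Fc replicates 1 to 4, against 113 and 94.8 CPM in PBS replicates 1 and 2. With TMM scaling their log2 fold changes were -0.14 (95% interval -0.56 to 0.28) for Rab27a and -0.27 (95% interval -0.69 to 0.16) for Stxbp2.

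Stx11, the target-membrane SNARE syntaxin-11 (chromosome 10, 12939983 to 12964259), had 72.8, 100.2, 143 and 111 CPM in IL-10/Fc replicates 1 to 4, against 94.2 and 87.4 CPM in PBS replicates 1 and 2. Unc13d, the priming factor Munc13-4 (chromosome 11, 116062095 to 116077961), was the scarcest, at 6.23, 7.64, 6.59 and 3.05 CPM in IL-10/Fc replicates 1 to 4, against 4.42 and 4.80 CPM in PBS replicates 1 and 2. Both spread more within IL-10/Fc than between the PBS libraries. The log2 fold changes were 0.23 (95% interval -0.39 to 0.85) for Stx11 and 0.35 (95% interval -0.68 to 1.38) for Unc13d. Unc13d rested on 186, 219, 183 and 107 counts in IL-10/Fc and 130 and 147 counts in PBS. Both intervals take in the log2 fold changes of Srgn (0.52) and Ctsw (0.70).

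**Figure D2:**
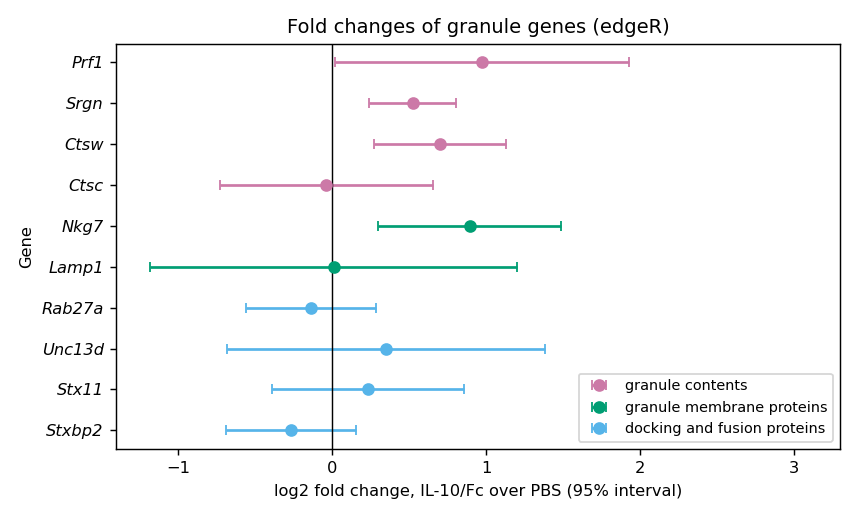
Log2 fold change of each gene, IL-10/Fc (n = 4) over PBS (n = 2), from edgeR's quasi-likelihood fit over 15477 genes, with 95% intervals as bars and roles by colour. The intervals of Srgn, Ctsw, Nkg7 and Prf1 lie above 0, unadjusted for the number of genes tested, and those of the other 6 genes include 0.

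Of the 10 genes, 7 had a fold change above 1 and 3 below, where 49.3% of all genes tested were above. In 4 of the 10 all IL-10/Fc libraries lay above both PBS libraries and in 0 all below, where 12.1% of all genes lay above and 11.5% below in this way. In edgeR's quasi-likelihood test 0 of the 10 passed a Benjamini-Hochberg adjusted p of 0.05, beside 0.00646% of all genes higher and 0.0% lower, and limma-voom also called 0. Adjusted p in that edgeR test was 0.206 for Srgn, 0.232 for Ctsw and 0.265 for Nkg7. At an unadjusted edgeR p under 0.05, 4 of the 10 were higher (Prf1, Srgn, Ctsw and Nkg7) and 0 lower, beside 7.2% of all genes higher and 5.52% lower. Without PBS replicate 1 these 4 and Lamp1 were higher at that level, beside 5.7% of all genes, and without PBS replicate 2 the 4 were, beside 8.27%.

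In the authors' deposited table, 3 of the 10 had an adjusted p under 0.05, Srgn (0.0113), Ctsw (0.0151) and Nkg7 (0.0170), all higher, and Prf1 had 0.107. Of all genes in the authors' deposited table, 3.57% were called higher and 1.72% lower. DESeq2 refitted to the same counts called those 3 as well, beside 3.22% of all genes higher and 1.51% lower. With scaling by library size alone, 2 of the 10, the docking and fusion genes Rab27a and Stxbp2, lay below PBS in every IL-10/Fc library, beside 19.8% of all genes. Under a stricter filter of 20 CPM in 2 libraries, edgeR called 0 of the 10, beside 0.737% of all genes higher and 0.268% lower.

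Set against each other per library, the mean of the granule contents lay higher in every IL-10/Fc library than in PBS. That of the docking and fusion genes overlapped with TMM scaling. The median log2 fold change was 0.61 over the 4 contents and 0.05 over the 4 docking and fusion genes, beside -0.01 over all genes tested. No test was made of a score over chosen genes. Without PBS replicate 1 these medians were 0.44 for contents and 0.11 for docking and fusion. With scaling by library size alone they were 0.44 for contents and -0.12 for docking and fusion, where the median of all genes was -0.18. The mean log2 CPM of the contents was 10.03, 10.14, 10.10 and 10.16 in IL-10/Fc replicates 1 to 4, against 9.2 and 9.82 in PBS replicates 1 and 2. That of the docking and fusion genes was 4.95, 5.16, 5.22 and 4.97 in IL-10/Fc replicates 1 to 4, against 5.10 and 5.02 in PBS replicates 1 and 2. The IL-10/Fc libraries were thus all above PBS for contents and on both sides of PBS for docking and fusion.

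The difference between these means, contents minus docking and fusion on the log2 CPM scale, was 5.08, 4.98, 4.88 and 5.19 in IL-10/Fc replicates 1 to 4, against 4.10 and 4.79 in PBS replicates 1 and 2. All IL-10/Fc libraries lay above both PBS libraries; IL-10/Fc replicate 3 was the nearest to PBS replicate 2. The summed level of the contents was 5958 ± 149 CPM in IL-10/Fc and 4074 ± 208 CPM in PBS (SD, n = 4 and 2). That of the docking and fusion genes was 220 ± 36.0 CPM in IL-10/Fc and 222 ± 16.2 CPM in PBS (SD, n = 4 and 2). Srgn alone averaged 3487 CPM in IL-10/Fc and 2427 CPM in PBS, most of the sum of the contents. It was higher in PBS replicate 1 than in PBS replicate 2, while Prf1, Ctsw and Ctsc were lower. The PBS SD of the contents sum is thus small although its genes differed between these libraries.

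**Figure D3:**
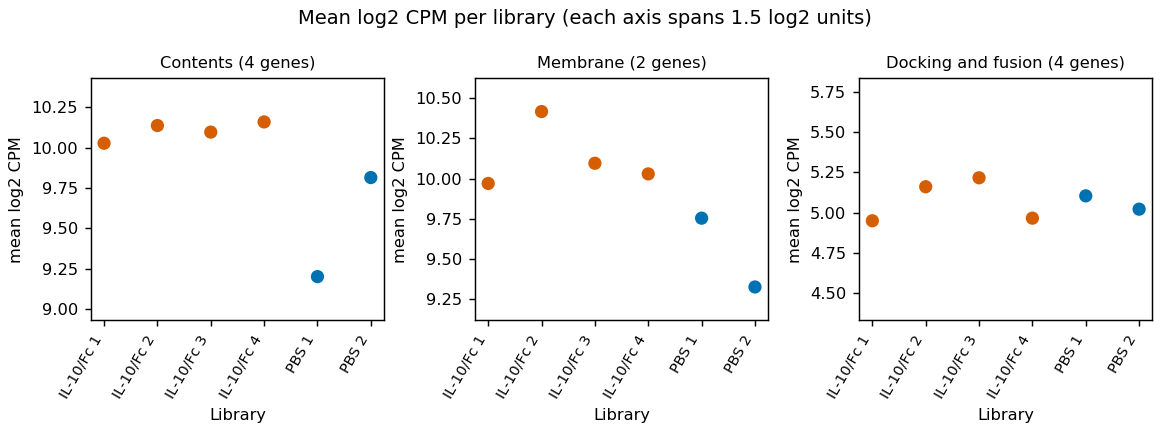
Mean log2 CPM per library over the 4 granule contents, the 2 membrane proteins and the 4 docking and fusion genes, with IL-10/Fc in orange and PBS in blue; each vertical axis spans the same range. The means of contents and of membrane proteins are higher in all IL-10/Fc libraries than in PBS, though Ctsc and Lamp1 on their own overlap. The mean of docking and fusion genes lies between 4.95 and 5.22 with no separation.

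Levels of different genes were compared as TPM, a relative level that divides by exon length. Nkg7 led at 9099 to 21464 TPM over the 6 libraries, followed by Srgn (1577 to 2411), Ctsw (595 to 1142) and Prf1 (120 to 411). Ctsc had 81.5 to 178 TPM and Lamp1 27.1 to 95.2 TPM. The docking and fusion genes Stx11 (24.3 to 50.1 TPM), Stxbp2 (21.3 to 41.6 TPM) and Rab27a (9.04 to 14.0 TPM) were lower, and Unc13d had 0.907 to 2.30 TPM. The ranges of Prf1 and Ctsc, of Ctsc and Lamp1, of Lamp1 and Stx11 and of Stx11 and Stxbp2 overlapped, and the other neighbours were separate over the 6 libraries. Within each library, Prf1 was above Ctsc and Ctsc above Lamp1 in all 6, so these pairs overlap only between libraries. Lamp1 and Stx11, and Stx11 and Stxbp2, changed order between libraries.

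Over the 6 libraries, the genes most like Prf1 and Nkg7 included those of the CD8 coreceptor and the CD3 complex. Likeness was measured as the root mean square distance between log2 CPM values, each gene centred on its mean over the 6 libraries, among 4623 named genes of at least 20 CPM. Nearest to Prf1 were Cd8a, the alpha chain of CD8 (0.12), Bbip1, a subunit of the ciliary BBSome (0.13), and Glrx, glutaredoxin (0.14), where the median gene lay at 0.74. Nearest to Nkg7 were Cd52, a surface glycopeptide of lymphocytes (0.06), Cd3g, the CD3 gamma chain (0.08), and Borcs8, a subunit of the BORC complex (0.09). Nkg7 was the nearest of the 10 genes to Prf1, in place 14 of the 4623 at a distance of 0.24. Cd8a itself had 3161, 3097, 2896 and 3144 CPM in IL-10/Fc replicates 1 to 4, against 910 and 2292 CPM in PBS replicates 1 and 2. Cd3g had 5128, 5077, 4581 and 4656 CPM in IL-10/Fc replicates 1 to 4, against 1659 and 3483 CPM in PBS replicates 1 and 2. Both share with Prf1 and Nkg7 their lowest value in PBS replicate 1.

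The granule genes were also expressed per CD3 and CD8 transcripts, as a percent of the summed counts on Cd3d, Cd3e, Cd3g, Cd8a and Cd8b1 in the same library, a measure chosen after the data were seen. On that scale Nkg7 stood at 110, 108, 103 and 111% in IL-10/Fc replicates 1 to 4, against 100.5 and 107% in PBS replicates 1 and 2. Prf1 stood at 5.85, 4.76, 6.11 and 6.26% in IL-10/Fc replicates 1 to 4, against 3.75 and 6.12% in PBS replicates 1 and 2. On this scale the groups overlapped for both genes, PBS replicate 1 being the lowest of the 6 libraries for each. The sum includes Cd8a and Cd3g, found above to be among the genes nearest to Prf1 and to Nkg7. Part of this overlap therefore follows from the choice of the measure.

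Srgn stood at 29.8, 26.9, 30.3 and 28.1% in IL-10/Fc replicates 1 to 4, against 55.3 and 24.9% in PBS replicates 1 and 2, and PBS replicate 1 was far above every other library. Ctsw stood at 10.1, 12.2, 10.3 and 9.89% in IL-10/Fc, against 13.6 and 10.8% in PBS, with overlap. Rab27a stood at 0.249, 0.214, 0.213 and 0.242% in IL-10/Fc, against 0.655 and 0.341% in PBS. In all, 0 of the 10 genes had all IL-10/Fc libraries above PBS, where 1.69% of all genes did, and 3 (Ctsc, Rab27a and Stxbp2) had them all below, where 52.5% did. The denominator was itself higher in IL-10/Fc, so that all genes tested had a median log2 ratio of -0.96 on this scale, beside medians of -0.34 for the contents and -0.92 for docking and fusion. The part of the level of T cell transcripts in the values above was not tested.

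**Figure D4:**
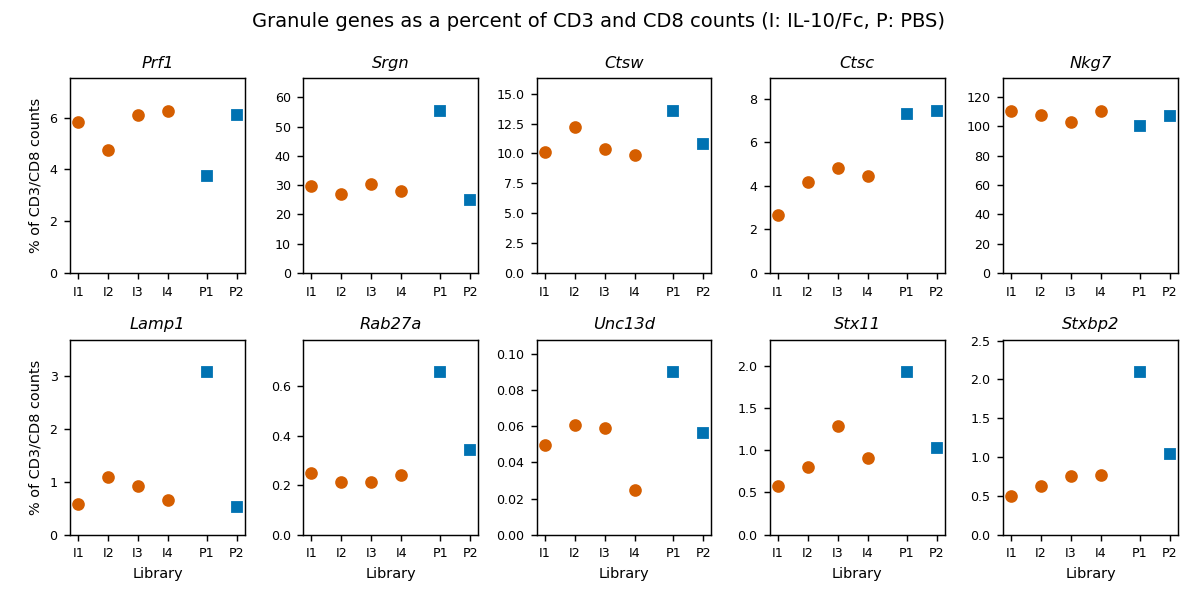
Counts of each gene as a percent of the summed CD3 and CD8 counts of the same library, with 1 point per library (I1 to I4 IL-10/Fc, circles; P1 and P2 PBS, squares) and axes from 0. Nkg7 lies between 100.5 and 111% in all 6 libraries, and Ctsc, Rab27a and Stxbp2 lie lower in every IL-10/Fc library.

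Upstream sequences were matched for 8 of the 10 genes. Those of Prf1 and Nkg7, the gene of the 10 nearest to Prf1, are shown beside that of Rab27a, which did not separate the groups with TMM scaling. Each is the 250 bases before a RefSeq start site in GRCm38.p6, 5' to 3' on the gene's strand. They lie at chr10:61297586-61297835, chr7:43436888-43437137 and chr9:73044560-73044809, all on the plus strand. Capitals mark matches, on either strand, to 6 motifs: STAT GAS (TTCNNNGAA), T-box (GGTGTG), RUNX (TGTGGT), ETS (AGGAAG), AP-1 (TGANTCA) and CRE (TGACGTCA).
Prf1: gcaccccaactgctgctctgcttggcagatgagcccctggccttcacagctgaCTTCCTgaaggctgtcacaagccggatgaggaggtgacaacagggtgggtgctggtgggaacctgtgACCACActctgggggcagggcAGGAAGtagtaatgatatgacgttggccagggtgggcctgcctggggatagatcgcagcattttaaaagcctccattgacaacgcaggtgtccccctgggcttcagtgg
Nkg7: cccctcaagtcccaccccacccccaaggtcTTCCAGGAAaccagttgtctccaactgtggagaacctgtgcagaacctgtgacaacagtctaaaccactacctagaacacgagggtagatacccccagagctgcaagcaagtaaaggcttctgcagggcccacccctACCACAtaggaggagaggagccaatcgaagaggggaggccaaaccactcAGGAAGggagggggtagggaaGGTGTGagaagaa
Rab27a: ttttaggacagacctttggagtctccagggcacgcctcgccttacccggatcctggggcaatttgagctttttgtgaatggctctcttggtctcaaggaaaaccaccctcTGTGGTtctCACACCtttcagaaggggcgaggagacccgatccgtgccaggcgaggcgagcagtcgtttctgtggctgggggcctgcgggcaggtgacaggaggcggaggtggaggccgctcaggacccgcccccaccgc
Interleukin-10 signals mainly through STAT3, whose dimers bind the GAS motif, while T-box and RUNX factors are regulators of cytotoxic genes. Nkg7 held 1 GAS match, at position -220 from the start site, a motif found in 7.01% of all 32817 promoters of this length. It also held a RUNX match at -83, an ETS match at -34 and a T-box match at -13. The deposited span of Nkg7 starts at 43437073, before that RefSeq start site, and takes in these ETS and T-box matches. Prf1 held ETS matches at -197 and -109 and a RUNX match at -130, and no other of these motifs in this window. Rab27a held a RUNX match at -140 and a T-box match at -131 in the window shown. The window of its other RefSeq start site, at chr9:73063898-73064147, held no match to these motifs. No match overlapped another in these 3 sequences. Of the matched genes, Ctsc, which also did not separate the groups, was the other with a GAS match, at -236. RUNX letters occur in 14.0%, T-box letters in 16.3% and ETS letters in 29.5% of all promoters, and a match describes letters only.

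The labels give a sort purity above 99% for every library. Markers of other cells that express granule or lysosomal genes moved in part with the groups, with 0 of them called. The counts of genes higher in IL-10/Fc below stand beside 49.3% of all genes tested. The NK list, of which 6 of 8 genes were listed, summed to 119 to 532 CPM in IL-10/Fc and to 77.8 to 112 CPM in PBS, with 4 of 6 tested higher in IL-10/Fc. Fcer1g and Tyrobp, shared with myeloid cells, held most of it in every library but PBS replicate 1, where Eomes at 46.7 CPM was the highest. Of the NK receptor genes, Klra8 had 4.22, 0.732, 1.62 and 4.70 CPM in IL-10/Fc replicates 1 to 4, against 0.272 and 0.327 CPM in PBS replicates 1 and 2. Klra9 had 2.95, 6.56, 13.3 and 19.0 CPM in IL-10/Fc, against 3.02 and 1.54 CPM in PBS, and Klrb1c had 0.0335, 0.0698, 0.720 and 0.228 CPM in IL-10/Fc, against 10.1 and 0.0653 CPM in PBS. Klra8 was thus above PBS in every IL-10/Fc library, as were 12.1% of all genes, and the groups overlapped for Klra9 and Klrb1c. Klra8 rested on 126, 21, 45 and 165 counts in IL-10/Fc replicates 1 to 4, and 8 and 10 counts in PBS replicates 1 and 2. The macrophage and monocyte list (15 of 15 genes listed) summed to 178 to 808 CPM in IL-10/Fc and to 292 to 438 CPM in PBS, with 13 of 15 higher and Mrc1 at 0 in both PBS libraries. The MHC class II and dendritic list (6 of 9 genes listed) summed to 167 to 1893 CPM in IL-10/Fc and to 167 to 287 CPM in PBS, with 5 of 6 higher.

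The melanoma list (5 of 8 genes listed) summed to 9.58 to 25.0 CPM in IL-10/Fc and to 8.04 to 15.8 CPM in PBS. Lists of neutrophils and mast cells (4 of 8), B cells (1 of 5) and fibroblasts and endothelium (2 of 7) summed to at most 20.4 CPM in every library, and the CD4 T cell list had 0 of 3 genes listed. The part of these cells in the values of the granule genes was not tested.

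Around these 10 genes, 8 wider lists of the granule pathway held 139 genes, of which 137 were tested. Of the 137, 0 passed edgeR's quasi-likelihood test in either direction at a Benjamini-Hochberg adjusted p of 0.05. At an unadjusted p under 0.05, 20 were higher and 5 lower, beside 7.2% and 5.52% of all genes, and DESeq2 called 10 higher and 1 lower, beside 3.22% and 1.51%. IL-10/Fc lay above PBS in every library for 28 genes and below for 8, beside the 12.1% and 11.5% of all genes given above. The genes named next have the smallest p of their list among those averaging at least 5 CPM, and none passed the edgeR test over the 15477 genes. Means are given with SD over 4 IL-10/Fc and 2 PBS libraries.

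Other granule contents and their inhibitors (15 genes tested, median log2 fold change 0.71) had 10 genes higher and 5 lower, with 3 separating the groups. The median is the value of Gzma, given here for that reason, whose groups overlapped. Gzma had 1199, 1719, 687 and 1273 CPM in IL-10/Fc replicates 1 to 4, against 1139 and 351 CPM in PBS replicates 1 and 2. Gzmb, the serine protease that perforin delivers, had 4770, 2763, 3310 and 3711 CPM in IL-10/Fc replicates 1 to 4, against 583 and 721 CPM in PBS replicates 1 and 2. Its log2 fold change was 2.48 (edgeR adjusted p = 0.141; 0.0179 under the stricter filter). Cst7, cystatin F, an inhibitor of cathepsin C, had 2027, 1384, 1363 and 1485 CPM in IL-10/Fc and 382 and 1143 CPM in PBS, with PBS replicate 1 the lowest as for Prf1. Its log2 fold change was 1.04, and 0.45 without PBS replicate 1 and 2.03 without PBS replicate 2. Calr, the chaperone calreticulin, also found in granules, averaged 107 ± 21.3 CPM in IL-10/Fc and 65.2 ± 31.8 CPM in PBS. Its log2 fold change of 0.72 was 0.29 without PBS replicate 1 and 1.33 without PBS replicate 2.

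Genes that sort granule proteins to lysosomes (12 tested, median 0.06) were divided, 6 higher and 6 lower. The subunits of the enzyme that makes the mannose 6-phosphate tag lay higher. Gnptg averaged 89.8 ± 6.14 CPM in IL-10/Fc and 58.7 ± 1.45 CPM in PBS (edgeR adjusted p = 0.178), and Gnptab averaged 56.2 ± 10.8 CPM in IL-10/Fc and 27.7 ± 12.1 CPM in PBS. For Gnptab the log2 fold change of 1.02 was 0.63 without PBS replicate 1 and 1.55 without PBS replicate 2. Of the receptors of that tag, M6pr averaged 162 ± 18.1 CPM in IL-10/Fc and 202 ± 9.74 CPM in PBS. The other receptor, Igf2r, given here to complete the pair, averaged 11.6 ± 2.41 CPM in IL-10/Fc and 9.51 ± 5.91 CPM in PBS. The groups overlapped for Igf2r and did not for the other 3 genes.

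Lysosomal membrane proteins and hydrolases (20 tested, median 0.42) had 15 genes higher and 5 lower, and 6 had all IL-10/Fc libraries above PBS. Ctsa, cathepsin A, averaged 600 ± 72 CPM in IL-10/Fc and 354 ± 95.3 CPM in PBS. Lamp2, the closest relative of Lamp1, averaged 163 ± 18.4 CPM in IL-10/Fc and 94.6 ± 31.6 CPM in PBS, a log2 fold change of 0.78 that was 1.17 without PBS replicate 1 and 0.48 without PBS replicate 2. Ctsh, cathepsin H, averaged 21.8 ± 12.6 CPM in IL-10/Fc and 5.95 ± 0.638 CPM in PBS. Its highest libraries, IL-10/Fc replicates 3 and 4 at 33.8 and 30.8 CPM, also had the highest macrophage sums, 717 and 808 CPM, and the part of those cells was not tested.

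Biogenesis of lysosome-related organelles (20 tested, median -0.07) had 8 genes higher and 12 lower. Bloc1s1, a subunit shared by the BLOC-1 and BORC complexes, averaged 142 ± 10.7 CPM in IL-10/Fc and 111 ± 3.11 CPM in PBS. Dtnbp1, dysbindin, another BLOC-1 subunit, averaged 14.3 ± 1.33 CPM in IL-10/Fc and 19.9 ± 2.52 CPM in PBS, without overlap. Ap3d1, a subunit of the AP-3 adaptor, averaged 19.4 ± 7.84 CPM in IL-10/Fc and 11.9 ± 4.0 CPM in PBS, with overlap. Its log2 fold change of 0.70 was 1.09 without PBS replicate 1 and 0.40 without PBS replicate 2 or without IL-10/Fc replicate 1.

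Other SNAREs, Rabs, synaptotagmins and tethers (29 tested, median 0.18) had 20 genes higher and 9 lower, 7 of them above PBS in every IL-10/Fc library and 1 below. That 1 was Vamp8, a vesicle SNARE of secretory granules, with 489, 444, 624 and 564 CPM in IL-10/Fc replicates 1 to 4, against 839 and 779 CPM in PBS replicates 1 and 2. Its log2 fold change was -0.61 (edgeR adjusted p = 0.225), and DESeq2 called it lower, the 1 gene of the wider lists so called. Syt11, a synaptotagmin, averaged 71.0 ± 11.8 CPM in IL-10/Fc and 38.3 ± 10.3 CPM in PBS. Rab11a, the GTPase of recycling endosomes, averaged 251 ± 19.6 CPM in IL-10/Fc and 197 ± 2.03 CPM in PBS.

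The exocyst, the tethering complex of secretory vesicles (8 tested, median 0.02), had 4 genes higher and 4 lower. Its subunit Exoc7 averaged 51.4 ± 5.21 CPM in IL-10/Fc and 66.8 ± 6.59 CPM in PBS, without overlap. Exoc3, whose direction turned with scaling by library size alone, averaged 44.2 ± 2.57 CPM in IL-10/Fc and 39.5 ± 1.96 CPM in PBS, and Exoc5 averaged 51.7 ± 6.12 CPM in IL-10/Fc and 45.3 ± 6.85 CPM in PBS, both with overlap. The log2 fold change of Exoc5, 0.19, was 0.35 without PBS replicate 1, 0.045 without PBS replicate 2 and 0.10 without IL-10/Fc replicate 1.

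Polarisation, actin and motor genes (23 tested, median 0.12) had 15 higher and 8 lower. Rhoa, a GTPase that controls actin, averaged 218 ± 14.2 CPM in IL-10/Fc and 147 ± 23.2 CPM in PBS. Actr2, of the Arp2/3 complex, averaged 141 ± 13.6 CPM in IL-10/Fc and 84.5 ± 29.4 CPM in PBS, and the haematopoietic GTPase Rac2 averaged 2743 ± 259 CPM in IL-10/Fc and 2004 ± 400 CPM in PBS. The groups did not overlap for these 3 genes. Without PBS replicate 1 the log2 fold change of Actr2 was 0.42 in place of 0.74, and that of Rac2 was 0.26 in place of 0.45. Without PBS replicate 2 that of Actr2 was 1.15.

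Calcium entry genes (10 tested, median -0.12) had 4 higher and 6 lower. The channel subunit Orai3 averaged 10.7 ± 5.01 CPM in IL-10/Fc and 25.2 ± 2.47 CPM in PBS, without overlap. Orai1, the main pore subunit of store-operated entry, averaged 131 ± 29.1 CPM in IL-10/Fc and 170 ± 36.1 CPM in PBS. The inositol trisphosphate receptor gene Itpr2 averaged 13.4 ± 5.29 CPM in IL-10/Fc and 8.54 ± 2.8 CPM in PBS, and the groups overlapped for both. The log2 fold change of Orai1, -0.37, was -0.14 without PBS replicate 1 and -0.58 without PBS replicate 2. That of Itpr2, 0.65, was 0.35 without PBS replicate 1, 1.03 without PBS replicate 2 and 0.33 without IL-10/Fc replicate 1.

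**Figure D5:**
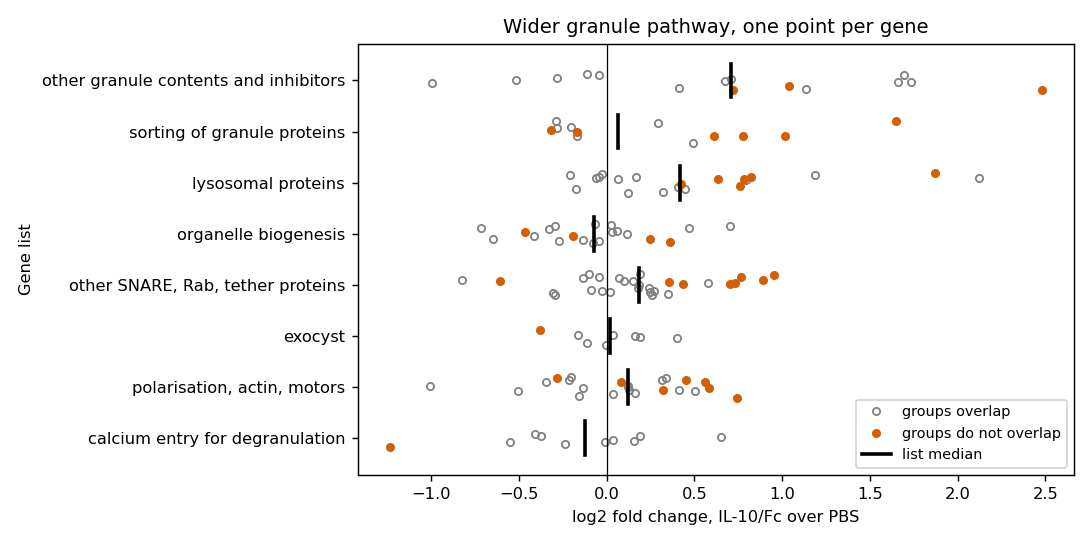
Log2 fold change, IL-10/Fc (n = 4) over PBS (n = 2), of each tested gene of the 8 wider lists, with filled points where the groups did not overlap and a black bar at the list's median. The list of other granule contents and inhibitors and that of lysosomal proteins have the highest medians, 0.71 and 0.42, and calcium entry the lowest, -0.12.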

How the data were processed

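The authors deposited raw counts by gene, as whole numbers, in a file per library and again in a series table. Smart-Seq2, the protocol per the labels, uses neither molecular identifiers nor strand marking. The submitters' processing notes list Trimmomatic, TopHat2 2.1.1 with Bowtie2 2.2.9, Cuffdiff, Cufflinks 2.2.1 and DESeq2 on GRCm38 (mm10). Which tool counted the reads is not stated there. Per the file headers, the authors' deposited table also holds a mean of normalized counts (a signal), log2 fold changes with standard errors, a Wald statistic (a score), p-values and adjusted p-values. The PBS libraries are numbered here as in their titles, 1 and 2; the deposited columns call them 2 and 3.

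Genes were filtered with filterByExpr (edgeR 4.0.16, R 4.3.3), scaled by TMM (factors 0.950 to 0.983 in IL-10/Fc, 1.06 and 1.10 in PBS) and tested with edgeR's two-sided quasi-likelihood test, robust option, group as the sole term, with Benjamini-Hochberg adjustment over 15477 genes at 0.05. SE is the log2 fold change over the root of F. TPM used exon unions of GENCODE M21, found for 15865 genes; the spans of Prf1, Ctsw and Stx11 differ there from the deposited ones. Ctsw shares 9 exon bases with Fibp and Lamp1 249 with Grtp1 on the opposite strand, and Rab27a 149 with the pseudogene Gm27186; reads there cannot be told apart. Depth makes 3 counts equal 0.0812 to 0.112 CPM, counting error only. Replicate pairs differed beyond sampling noise (chi-square per degree of freedom 132 in PBS, 45.2 to 86.2 in IL-10/Fc), so none was a copy of another. That cannot tell separate mice from separate preparations, and each library was counted as 1 sample. DESeq2 1.42.0 and limma 3.58.1 were alternatives. The tests were tested on simulated data.

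The genes, the lists and the rule for naming genes were chosen with earlier results of these data known. The rule named the 10 genes, up to 3 genes of each wider list with the smallest p at 5 CPM or more, and the 3 genes nearest to Prf1 and to Nkg7.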

Additional observations from a re-analysis of the deposited data

Results flagged for a closer look

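Within the 4 IL-10/Fc libraries, 34 genes were checked for a library far from the others, by the gap to the nearest value over the whole range, against Dixon's 95% critical value. Chance flags about 1 in 20 such groups, and 5 genes passed. Srgn was highest in IL-10/Fc replicate 1, at 3760 CPM with the others at 3372 to 3431 CPM (0.848). Ctsc was lowest there, at 336 CPM with the others at 523 to 542 CPM (0.907). Exoc5 (0.904) and Itpr2 (0.927) were highest in the same library, at 60.8 and 21.3 CPM. Ctsa was highest in IL-10/Fc replicate 2, at 707 CPM (0.843).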

How the results depend on the processing

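Scaling by library size alone put the median of all genes at -0.18, against -0.01 with TMM, and moved the medians to 0.44 for contents and -0.12 for docking and fusion. Under it Rab27a and Stxbp2, 2 of the 10 genes, lay below PBS in every IL-10/Fc library (19.8% of all genes), Lamp1 turned to -0.17, Exoc3 to -0.0067, and 0 genes passed as higher. With a minimum of 20 CPM in 2 libraries 44 genes passed higher and 16 lower, 1 of them (Gzmb) in the wider lists, Lamp1 was at -0.015, and docking and fusion, without Unc13d, had a median of -0.16. DESeq2 called 502 genes higher and 236 lower, among them 3 of the 10, Srgn (0.52), Ctsw (0.70) and Nkg7 (0.89), and of the wider lists 1 granule content, 3 sorting, 3 lysosomal, 1 SNARE and Rab and 2 polarisation genes higher and 1 SNARE gene lower. Without the robust option 0 genes passed.

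Deviations from group means correlated at 0.0625 for libraries with number 1 in their titles and 0.0148 for number 2. With 2 PBS libraries these deviations mirror each other, so the values cannot exclude that libraries were paired. The numbers in the deposited columns, which differ for PBS, were not used as a block. With the replicate number as a block 0 genes passed, and medians were 0.70 for contents and 0.65 for membrane proteins, with Stx11 at -0.088. Per CD3 and CD8 transcripts, chosen after seeing the data, 2 of the 10 were higher, 0 were above and 3 below PBS in every library, and medians were -0.34, -0.54 and -0.92 for contents, membrane proteins and docking and fusion.

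Leaving out each library in turn, 0 to 12 genes passed higher and 0 to 4 lower, with the 12 and 4 without PBS replicate 2, and 0 of the 10 passed each time. Of the 10, 4 or 5 lay above PBS in every library and 0 to 3 below. Of all genes, 14.5 to 15.6% lay above and 14.1 to 15.2% below without 1 IL-10/Fc library, 23.2% and 23.9% without PBS replicate 1, and 25.5% and 27% without PBS replicate 2, the setting of the 3 below (Lamp1, Rab27a and Stxbp2). Medians ranged from 0.44 to 0.70 for contents, 0.34 to 0.82 for membrane proteins and -0.01 to 0.11 for docking and fusion. Ctsc ranged from -0.39 to 0.44 and Lamp1 from -0.61 to 1.14, turning sign; the cause was not tested. Prf1, Srgn, Ctsw and Nkg7 stayed above 0 in every edgeR, DESeq2 and limma-voom fit. Fits with 1 PBS library take its spread from the IL-10/Fc libraries.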
